A study of Mus musculus with 24 samples.

Results

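The 10 genes described here encode chaperones of the HSP70 family and of the HSP90 family and were taken by name from the table of gene counts. They are Hspa1l, Hspa2, Hspa4, Hspa4l, Hspa5, Hspa8, Hspa9, Hsph1, Hsp90aa1 and Hsp90ab1, which are 10 of the 55536 genes of the table, and all 10 had enough counts to be tested. Poly(A) RNA was sequenced from cells of adult C57BL/6J mice aged 10 to 15 weeks, enriched on a BSA gradient either for spermatocytes in pachytene and diplotene or for round spermatids. A targeted deletion on chromosome 4, present in every cell of the body, takes out all of Ago1 together with pieces of its neighbours Ago3 and Ago4, and the males carried no copy of it (Ago413+/+, wild-type), 1 copy (Ago413+/-, heterozygous) or both (Ago413-/-, null). Testes of several mice were pooled for each cell preparation, so a replicate is a pool and not an animal, and the fractions are enriched, not pure. With 3 libraries set aside because their labels mark them as outliers, spermatocytes had 4 wild-type, 3 heterozygous and 3 null libraries and round spermatids had 3 wild-type, 4 heterozygous and 4 null libraries. The comparisons asked whether the levels of these chaperone mRNAs differed between the fractions and whether they differed with the Ago413 genotype.

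HSP70 proteins bind exposed hydrophobic stretches of client proteins and release them in a cycle of ATP binding and hydrolysis. J-domain proteins of the HSP40 family bring clients and start hydrolysis, and nucleotide exchange factors, among them the larger HSP110 relatives, end the cycle. HSP90 dimers act later on clients that are partly folded and work with a set of cochaperones. The testis uses germ cell forms beside the forms found in every cell: HSPA2 is needed for male meiosis, HSPA1L is made in spermatids without heat shock, and HSPA4L supports male fertility. HSC70 (HSPA8) and HSP90 also help small RNA duplexes to load into Argonaute proteins, the family whose genes are deleted in these mice.

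Total counts ran from 12825105 to 29749058 per library, and the lowest count of any of the 10 genes in any library was 664. Ago1 had 0 counts in all 7 null libraries and 32 to 122 counts in the wild-type and heterozygous libraries, which is what the genotype labels state. Levels below are CPM (counts scaled to library size, with TMM factors over both fractions). The fractions overlapped in germ cell content. A list of 13 round spermatid markers, led by the protamines Prm1 and Prm2 and by the transition protein Tnp1, summed to 3592 to 11366 CPM in the spermatocyte libraries and to 14425 to 37610 CPM in the round spermatid libraries, and none of the 13 was at 0 in any library. Those 3 genes made up most of the sum. Mean CPM in spermatocytes and in round spermatids was 2461 and 10215 for Prm2, 1329 and 5440 for Prm1 and 1234 and 4861 for Tnp1. No other marker of the list had a mean above 798 CPM, and some hardly differed, such as Spaca1 (296 and 293 CPM) and Acr (230 and 245 CPM). Between the wild-type fractions 7 of the 13 were called higher by the same edgeR test and 0 lower, against 12.7% and 11.4% of all genes. A list of 12 spermatocyte markers summed to 1096 to 2569.9 CPM in spermatocytes and to 1046 to 1399 CPM in round spermatids, so those ranges overlapped over the 3 genotypes. In wild-type mice they were apart, at 1520 to 2569.9 CPM and 1126 to 1399 CPM, while in heterozygous and in null mice they overlapped. Between the wild-type fractions 8 of the 12 were called lower in round spermatids and 1 higher by the edgeR test given below (11.4% and 12.7% of all genes were). The median log2 fold change of the 12 was -1.44. Sertoli markers summed to 67.5 to 363 CPM and 88.4 to 358 CPM, Leydig markers to at most 26.7 CPM, and macrophage markers to 11.3 to 32.7 CPM in spermatocytes against 38.8 to 92.5 CPM in round spermatids. Of the 10 macrophage markers, Lyz2 was at 0 in 4 of the 21 libraries, C1qa in 4, C1qc in 5 and Cd68 in 1. A list of immediate early genes of cell dissociation summed to 43.0 to 73.5 CPM in spermatocytes and 75.2 to 109.6 CPM in round spermatids. Of the 3 libraries labelled as outliers, round spermatid wild-type replicate 3 (as labelled) held 5497 CPM of the spermatid markers, which is inside the range of the spermatocytes. The other 2, spermatocyte wild-type replicate 3 and spermatocyte heterozygous replicate 4, held 12502 and 12536 CPM, which lies between the 2 fractions.

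The start regions of the genes are shown first, because several of the members are known by what controls them. RefSeq promoter windows on GRCm38.p6 (250 bases before the transcription start and 50 from it) were found for 6 of the 10 genes. The 4 shown are those of the genes called between the fractions that had a window, Hspa1l, Hspa4 and Hspa5, and that of Hsph1, which held the heat shock element. They lie at chr17:34972453-34972752 on the + strand (Hspa1l), chr11:53300430-53300729 on the - strand (Hspa4), chr2:34771840-34772139 on the + strand (Hspa5) and chr5:149636287-149636586 on the - strand (Hsph1). Capitals mark each match, on either strand, to the motifs searched: the heat shock element of 3 units (GAANNTTCNNGAA or TTCNNGAANNTTC) or 2 units (GAANNTTC or TTCNNGAA), the cAMP response element TGACGTCA and its shorter core TGACG, the CCAAT box (CCAAT), the TATA box (TATAAA), the endoplasmic reticulum stress element (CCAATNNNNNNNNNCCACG) and the MYB core AACNGNC.
Hspa1l: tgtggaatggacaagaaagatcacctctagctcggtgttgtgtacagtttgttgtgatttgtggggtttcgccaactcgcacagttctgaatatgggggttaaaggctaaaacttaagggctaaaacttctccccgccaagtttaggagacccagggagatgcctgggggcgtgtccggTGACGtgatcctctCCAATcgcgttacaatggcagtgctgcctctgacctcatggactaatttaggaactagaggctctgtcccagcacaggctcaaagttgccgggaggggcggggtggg
Hspa4: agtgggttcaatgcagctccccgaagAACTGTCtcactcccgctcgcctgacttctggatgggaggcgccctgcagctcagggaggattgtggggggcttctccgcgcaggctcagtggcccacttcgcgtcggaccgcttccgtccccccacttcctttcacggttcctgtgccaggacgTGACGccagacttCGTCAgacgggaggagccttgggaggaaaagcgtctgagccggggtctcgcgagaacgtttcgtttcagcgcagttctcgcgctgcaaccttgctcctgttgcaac
Hspa5: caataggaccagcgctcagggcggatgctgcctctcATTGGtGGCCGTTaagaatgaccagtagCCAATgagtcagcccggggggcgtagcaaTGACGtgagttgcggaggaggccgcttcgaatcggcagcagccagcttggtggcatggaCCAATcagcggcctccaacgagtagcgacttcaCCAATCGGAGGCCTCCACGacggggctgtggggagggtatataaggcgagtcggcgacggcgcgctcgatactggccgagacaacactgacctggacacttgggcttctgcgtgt
Hsph1: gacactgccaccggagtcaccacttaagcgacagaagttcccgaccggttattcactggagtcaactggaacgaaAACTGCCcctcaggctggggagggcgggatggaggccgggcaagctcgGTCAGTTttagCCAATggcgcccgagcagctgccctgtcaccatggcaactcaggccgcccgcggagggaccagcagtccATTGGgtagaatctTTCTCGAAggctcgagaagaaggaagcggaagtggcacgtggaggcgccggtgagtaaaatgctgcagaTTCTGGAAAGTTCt

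The Hsph1 window held a heat shock element of 3 units, from base 37 after the start, which 198 of 32851 windows (0.603%) held. RefSeq gives Hsph1 another start, from which the same element begins at base 16, so its position depends on the annotated start. The same letters count for 2 of its 3 matches to the 2-unit form, which 15.1% of windows held. The Hspa5 window held an endoplasmic reticulum stress element from base -65, the binding site of the unfolded protein response, which 39 of 32851 windows (0.119%) held, and its first letters are also 1 of the 4 CCAAT matches of that window. CCAAT was held by 37.4% of windows and was also found in the windows of Hspa1l (1 match), Hspa2 (1 match) and Hsph1 (2 matches). The shorter core TGACG was held by 20.8% of all windows and by those of Hspa1l, Hspa2, Hspa4l and Hspa5 (1 match each) and Hspa4 (2 matches). The MYB core, held by 32.8% of windows, was found in those of Hspa2, Hspa4 and Hspa5 (1 match each) and of Hspa4l and Hsph1 (2 each). No member window held the full cAMP response element or TATAAA, which 1.79% and 13.6% of windows held.

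Among the 10 genes, scaled to exon length, Hspa2 and Hsp90aa1 stood highest in wild-type spermatocytes, and Hspa2 and Hspa1l in wild-type round spermatids. In wild-type spermatocytes, Hspa2 stood at 659 ± 38.3 CPM per kb of exon (SD, n = 4) and Hsp90aa1 at 564 CPM per kb, with libraries that overlapped. Hspa1l followed at 150 ± 47.5 CPM per kb (SD, n = 4) beside Hspa5 at 146 CPM per kb, again with overlapping libraries. Below them lay Hspa9, Hsp90ab1, Hspa4 and Hspa4l between 94.9 and 66.6 CPM per kb, each overlapping the next. Hspa8, the HSC70 of most tissues, stood at 16.5 CPM per kb and Hsph1 at 6.47 CPM per kb, each below the gene before it in every library. In wild-type round spermatids Hspa2 (556 CPM per kb) and Hspa1l (546 CPM per kb) overlapped at the top and Hsp90aa1 stood apart below them at 262 CPM per kb (n = 3).

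Per kb, Hspa2 made up 35.4% ± 0.721 of the summed level of the 10 genes in wild-type spermatocytes (SD, n = 4) and 31.6% ± 1.24 in wild-type round spermatids (SD, n = 3). The share of Hspa1l was 8.12% ± 2.81 in spermatocytes and 30.99% ± 2.71 in round spermatids. That of Hsp90aa1 was 30.2% ± 3.60 and 14.8% ± 2.41. The 10 genes together took 0.739% ± 0.0436 of all counts in wild-type spermatocytes (SD, n = 4) and 0.574% ± 0.0395 in wild-type round spermatids (SD, n = 3). By mean CPM in wild-type spermatocytes, with no length scaling, Hsp90aa1 was the 12th and Hspa2 the 26th most abundant of 20404 genes. Exon length counts every annotated exon once, so Hspa4l, with 11792 exon bases against 2472 for Hspa1l, is scaled down most. Only uniquely aligned reads were counted, so Hsp90aa1 and Hspa8, which share long stretches with pseudogenes, may stand too low in this order.

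**Figure D1:**
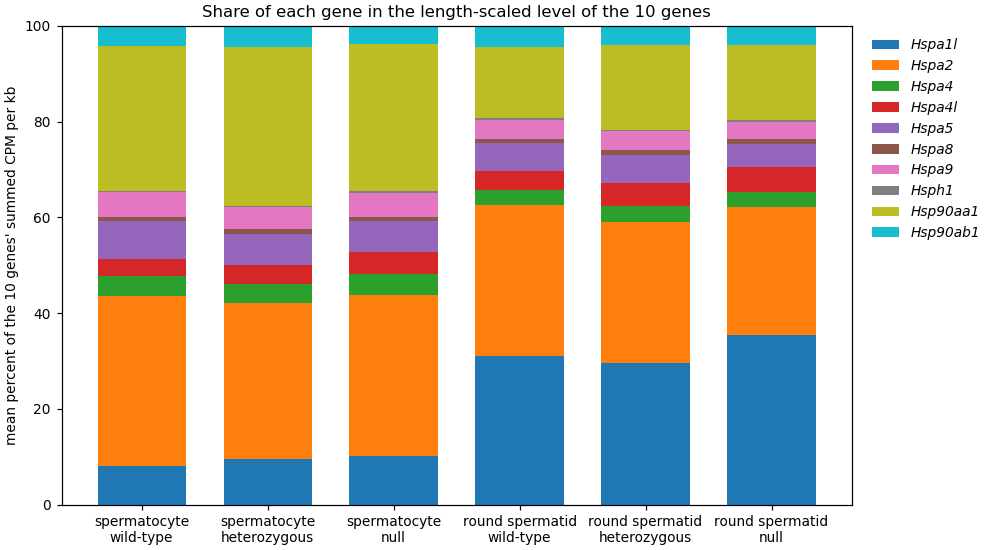
Mean share of each of the 10 genes in their summed CPM per kb of exon, as stacked bars for the 6 groups (percent, 3 or 4 libraries each). Hspa1l takes 8.12% in wild-type spermatocytes and 30.99% in wild-type round spermatids, while Hsp90aa1 takes 30.2% and 14.8%.

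Between the fractions of wild-type mice, Hspa1l rose and Hsp90aa1, Hspa4 and Hspa5 fell in round spermatids, and the other 6 genes did not pass the test. That is 4 of 10 called by edgeR's quasi-likelihood test (a call needs an adjusted p under 0.05 together with a log2 fold change beyond 0.5 in size), against 24.2% of all 20404 genes tested. Of the 10, 1 was called higher, where 12.7% of all genes were, and 3 lower, where 11.4% were. The libraries of the 2 groups did not overlap for 6 of the 10, against 33.7% of all genes. The median log2 fold change was -0.19 over the 10 genes and 0.02 over all genes. In bulk fractions, fewer cells of a type and less RNA per cell cannot be told apart. In heterozygous mice 2 of 10 were called, Hspa1l higher and Hsp90aa1 lower, against 8.89% of all genes (7.07% higher, 1.82% lower). In null mice the same 2 genes were called in the same directions, against 17.1% of all genes (11.7% higher, 5.42% lower), and 5 of 10 did not overlap against 29.7%.

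**Figure D2:**
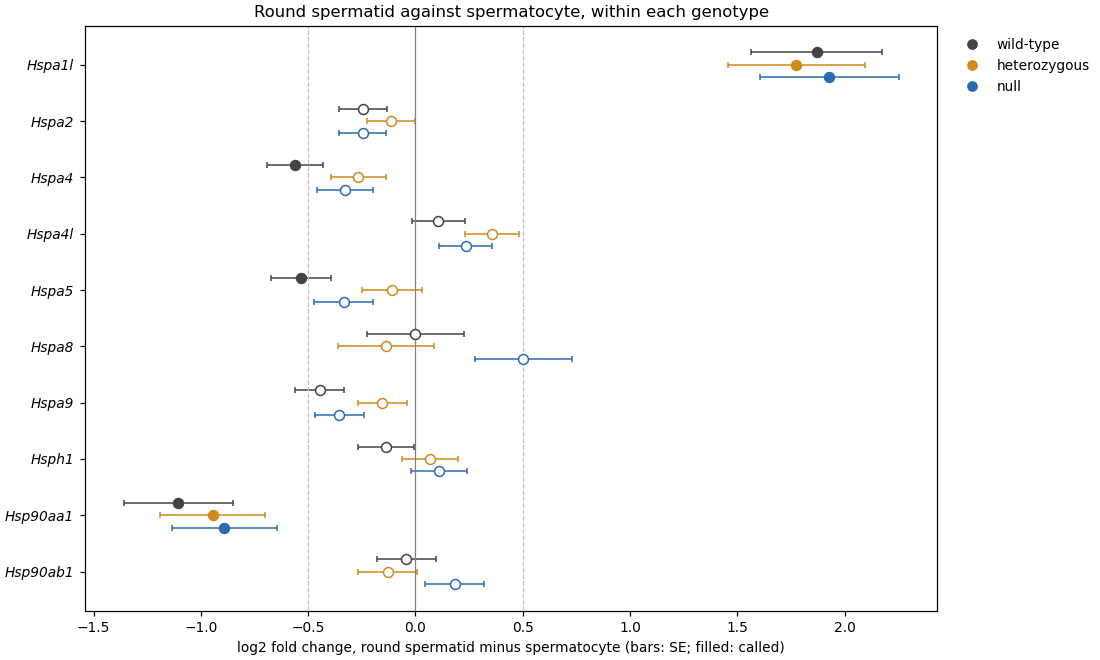
Log2 fold change of round spermatids over spermatocytes for each gene (edgeR, bars show the standard error), within wild-type, heterozygous and null mice, with filled points for called values and dashed lines at 0.5 and -0.5. Hspa1l lies at 1.87, 1.78 and 1.93 and Hsp90aa1 at -1.11, -0.95 and -0.89.

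Hspa1l (ENSMUSG00000007033, chr17:34972703-34979285, + strand), the spermatid HSP70, gave the largest difference. Wild-type spermatocyte libraries held 417, 452, 195 and 413 CPM and wild-type round spermatid libraries 1475, 1163 and 1412 CPM. All round spermatid libraries lay far above all spermatocyte libraries, and spermatocyte replicate 4, at 195 CPM, was low in its group. The log2 fold change was 1.87 ± 0.30 (SE), or 3.65-fold, with an edgeR adjusted p of 0.00048. In heterozygous mice the spermatocyte libraries held 503, 436 and 272 CPM and the round spermatid libraries 1959, 875, 952 and 1742 CPM. These round spermatid libraries fell into a high and a low pair, both above the spermatocytes, and the log2 fold change was 1.78 ± 0.32 (edgeR adjusted p = 0.0019). In null mice the values were 584, 404 and 263 CPM against 1769.9, 1838, 1448 and 1288 CPM, and the log2 fold change was 1.93 ± 0.32 (edgeR adjusted p = 0.00096). An antisense gene, Gm10501, covers 1778 exon bases of Hspa1l on the other strand. Its own counts were at most 1.15% of those of Hspa1l, and the strand setting of the counting is not stated.

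Hsp90aa1 (ENSMUSG00000021270, chr12:110690605-110702728, - strand) encodes the HSP90 form that is induced by stress in somatic cells and is abundant in germ cells. Wild-type spermatocytes held 2186, 1802, 2675 and 2208 CPM and wild-type round spermatids 852, 970.2 and 1268 CPM. Every round spermatid library lay below every spermatocyte library, and the log2 fold change was -1.11 ± 0.25 (SE), or 0.464-fold, with an edgeR adjusted p of 0.0032. In heterozygous spermatocytes the libraries held 1961, 1487 and 3944 CPM, so 1 of the 3 was far above the others, and the round spermatids held 1144, 1460.4, 1387 and 1124 CPM. The log2 fold change there was -0.95 ± 0.24 (edgeR adjusted p = 0.016). Without heterozygous spermatocyte replicate 3 it was -0.45 with an adjusted p of 0.22, and it was also no longer called without round spermatid replicate 1 (adjusted p = 0.057) or replicate 4 (adjusted p = 0.063). In null mice the spermatocytes held 1709.9, 2184 and 2254 CPM and the round spermatids 837, 950.0, 1208 and 1427 CPM, which did not overlap, with a log2 fold change of -0.89 ± 0.24 (edgeR adjusted p = 0.015). Leaving out null spermatocyte replicate 2 or 3 or null round spermatid replicate 1 raised that adjusted p to 0.057, 0.083 and 0.058.

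Hsp90ab1 (ENSMUSG00000023944, chr17:45567775-45573271, - strand), the HSP90 form that most cells make constitutively, stood at 241 ± 43.2 CPM in wild-type spermatocytes (SD, n = 4) and 234 ± 12.4 CPM in wild-type round spermatids (SD, n = 3). The groups overlapped and the log2 fold change was -0.04 ± 0.14 (edgeR adjusted p = 0.85). Within a library the ratio of Hsp90aa1 to Hsp90ab1 per kb of exon was 7.16 ± 1.51 in wild-type spermatocytes (SD, n = 4, range 5.75 to 9.24) and 3.35 ± 0.622 in wild-type round spermatids (SD, n = 3, range 2.73 to 3.97), so the ranges were apart. In null mice the ranges were also apart, 6.55 to 9.91 in spermatocytes (n = 3) and 3.12 to 4.98 in round spermatids (n = 4), while in heterozygous mice they overlapped, 4.42 to 13.6 (n = 3) and 4.05 to 4.76 (n = 4). Hsp90aa1 shares 51.4% and Hsp90ab1 13.2% of its 31-base words with other annotated genes, mostly processed pseudogenes. Those copies held at most 0.630% and 0.173% of the summed counts of gene and copies. Reads that aligned equally well to a gene and a copy were not counted, so the level of Hsp90aa1 may be understated, and the counts of the copies do not show by how much.

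The HSP110 genes, whose products are exchange factors for HSP70, differed among themselves. Hspa4 (ENSMUSG00000020361, chr11:53259814-53300457, - strand) held 419, 455, 476 and 402 CPM in wild-type spermatocytes and 260.0, 307 and 323 CPM in wild-type round spermatids. All round spermatid libraries were lower, with a log2 fold change of -0.56 ± 0.13 and an edgeR adjusted p of 0.0038. It was close to the threshold of 0.5, and without round spermatid replicate 1 it was -0.47 and no longer called. In heterozygous and null mice the log2 fold changes of Hspa4 were -0.27 ± 0.13 (edgeR adjusted p = 0.22) and -0.33 ± 0.13 (edgeR adjusted p = 0.084). Hspa4l (ENSMUSG00000025757, chr3:40744495-40796103, + strand), the germ cell relative, was not lower in round spermatids in any genotype. Its log2 fold change was 0.11 ± 0.12 in wild-type (edgeR adjusted p = 0.57), 0.36 ± 0.13 in heterozygous (edgeR adjusted p = 0.078) and 0.23 ± 0.13 in null mice (edgeR adjusted p = 0.20). The ratio of Hspa4l to Hspa4 per kb within a library was 0.846 ± 0.118 in wild-type spermatocytes (SD, n = 4) and 1.34 ± 0.0517 in wild-type round spermatids (SD, n = 3). Hsph1 (ENSMUSG00000029657, chr5:149614287-149636376, - strand), the heat-inducible HSP110, was the least abundant member per kb, with 35.6 to 52.5 CPM over all 21 libraries. Its groups overlapped between the fractions in all 3 genotypes.

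Hspa5 (ENSMUSG00000026864, chr2:34771970-34777547, + strand) encodes BiP, the HSP70 of the endoplasmic reticulum. Wild-type spermatocytes held 574, 725, 632 and 538 CPM and wild-type round spermatids 412, 410.5 and 457 CPM. The groups did not overlap, and the log2 fold change was -0.53 ± 0.14 with an edgeR adjusted p of 0.0079. That value also lay just past the threshold of 0.5 and was not called without spermatocyte replicate 2 (-0.45), with no filter on low counts (-0.49) or with libraries of consecutive numbers taken as pairs (-0.47). In heterozygous and null mice it was -0.11 ± 0.14 (edgeR adjusted p = 0.70) and -0.33 ± 0.14 (edgeR adjusted p = 0.096). Hspa9 (ENSMUSG00000024359), the mitochondrial HSP70, had a small but even difference. It held 378 to 441 CPM in wild-type spermatocytes and 279.6 to 315 CPM in wild-type round spermatids, without overlap. The log2 fold change of -0.45 ± 0.11 had an edgeR adjusted p of 0.0067 and was not called because it missed the threshold of 0.5. In heterozygous mice it was -0.15 ± 0.11 (edgeR adjusted p = 0.45), with overlapping groups, and in null mice -0.35 ± 0.11 (edgeR adjusted p = 0.033), also short of that threshold.

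Hspa2 (ENSMUSG00000059970, chr12:76404176-76406938, + strand), the meiotic HSP70, held 1817, 1648, 1843 and 1665 CPM in wild-type spermatocytes and 1498, 1408 and 1503 CPM in wild-type round spermatids. The round spermatid libraries were all lower, but the log2 fold change was only -0.25 ± 0.11 (edgeR adjusted p = 0.11). Hspa8 (ENSMUSG00000015656, chr9:40800984-40810087, + strand), the constitutive HSC70, held 46.5 to 93.6 CPM in wild-type spermatocytes and 67.9 to 72.8 CPM in wild-type round spermatids, with a log2 fold change of 0.00 ± 0.22 (edgeR adjusted p = 1.00). In null mice its groups did not overlap, 43.8 to 66.2 CPM in spermatocytes and 67.9 to 93.5 CPM in round spermatids. The log2 fold change there, 0.50 ± 0.23, did not pass the test (edgeR adjusted p = 0.13). Between the same null fractions the median was 1.37 over 8 Sertoli markers, against -0.0015 over all genes. Of those markers 3 were called higher by edgeR and by DESeq2, where edgeR called 11.7% of all genes higher, and in wild-type mice 0 of 8 were called. The part of the markers was not tested. Hspa8 shares 43.5% of its 31-base words with other genes, mostly processed pseudogenes, which held at most 1.31% of the summed counts. As for Hsp90aa1, reads shared with a copy were not counted, so the level of Hspa8 may be understated beside that of Hspa2, which shares 0.115% of its words.

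When the libraries labelled as outliers were added back, no member was called between the fractions in wild-type or heterozygous mice, and 0 of all genes were called in either. Both calls in null mice held, but no null library is labelled as an outlier, so only the shared spread and scaling changed there. The wild-type log2 fold changes were then 1.22 for Hspa1l (adjusted p = 0.064), -0.69 for Hsp90aa1 (adjusted p = 0.089), -0.37 for Hspa4 (adjusted p = 0.075) and -0.42 for Hspa5 (adjusted p = 0.066), all by edgeR. On a scale common to all 24 libraries, round spermatid wild-type replicate 3 (as labelled) held 380 CPM of Hspa1l, where the other round spermatid libraries held 878 to 1965 CPM and the spermatocyte libraries 196 to 585 CPM. The same library held 1990 CPM of Hsp90aa1, above the highest other round spermatid library (1467 CPM). The library labelled spermatocyte wild-type replicate 3 held 893 CPM of Hspa1l and 1387 CPM of Hsp90aa1, above and below the other spermatocyte libraries.

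**Figure D3:**
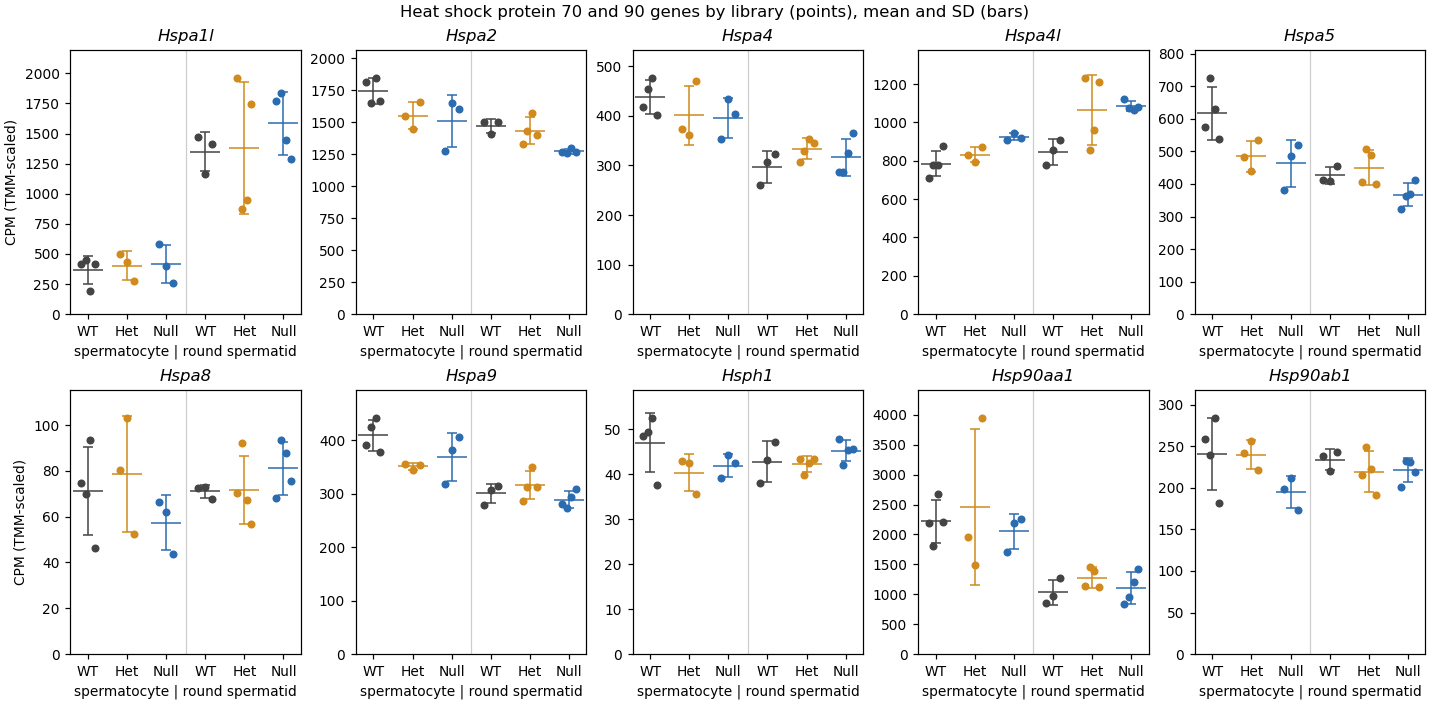
CPM of each gene in every library used (points), with the group mean and SD (bars), for wild-type (WT), heterozygous (Het) and null mice in spermatocytes (left of the line) and round spermatids (right). Hspa1l is at 195 to 584 CPM in all spermatocyte libraries and at 875 to 1959 CPM in all round spermatid libraries, while Hsp90ab1 and Hsph1 overlap between the fractions.

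The 10 genes were also set against the summed round spermatid markers within each fraction. That sum is made up mostly of Prm1, Prm2 and Tnp1, so it reads these transcripts more than the rest of the list. By Pearson's r 2 passed in spermatocytes (Hspa1l and Hspa9) and 4 in round spermatids, and by Spearman's rho 1 and 3 passed. Of all genes tested, 2.47% in spermatocytes and 14.0% in round spermatids had an absolute r at least as large as the smallest of those members, 0.78 and 0.72. Over the 10 spermatocyte libraries, log2 Hspa1l rose with the log2 marker sum, with Pearson's r of 0.89 and Spearman's rho of 0.92 (permutation test, adjusted p = 0.0053 and 0.0052). Without the 2 libraries farthest from the median marker sum, r was 0.61. Over the 11 round spermatid libraries r was 0.95 and rho 0.95 (permutation test, adjusted p = 0.0010 and 0.00060), and without the 2 farthest r was 0.97. Hspa9 went the other way in both fractions, with r of -0.78 in spermatocytes (rho -0.61, permutation test, adjusted p = 0.028 for r and 0.13 for rho) and -0.79 in round spermatids (rho -0.73, permutation test, adjusted p = 0.018 for r and 0.056 for rho), and r of -0.65 and -0.81 without the 2 farthest libraries. In round spermatids Hspa5 (r = -0.80, rho = -0.75) and Hsp90aa1 (r = -0.72, rho = -0.75) also fell as the markers rose (permutation test, adjusted p = 0.018 and 0.045 for r), and without the 2 farthest libraries r was -0.59 and -0.52. For Hspa8 and Hspa4l in spermatocytes r was -0.01 and 0.10. There were 20 relations, 10 genes in 2 fractions, each over libraries of 3 genotypes, and p-values were adjusted over the 20. The part of the spermatid markers in the differences between fractions was not tested.

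**Figure D4:**
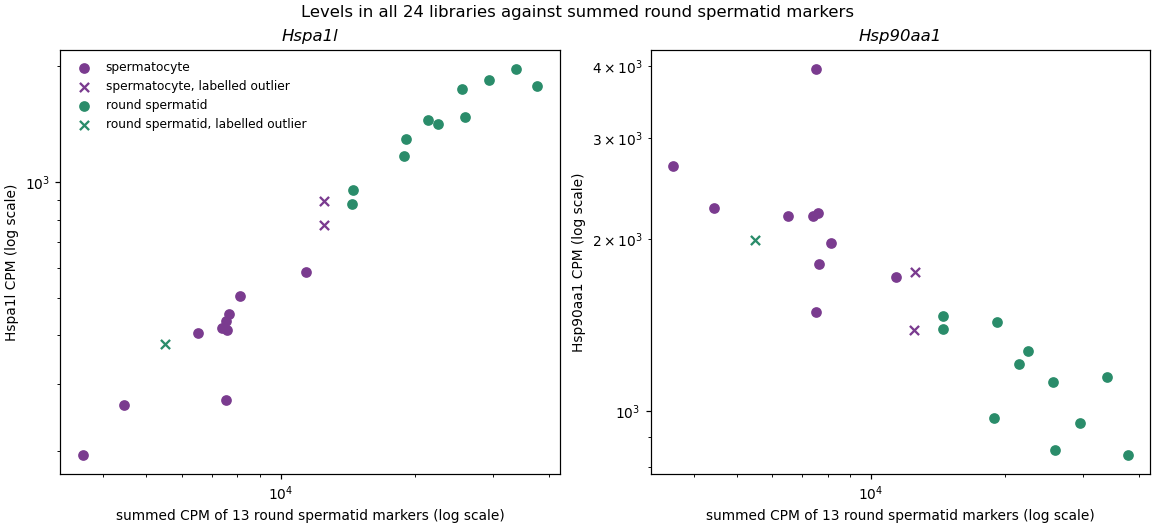
Level of Hspa1l (left) and Hsp90aa1 (right) in each of the 24 libraries (CPM, log scale) against the summed CPM of 13 round spermatid markers (log scale), with crosses for the 3 libraries labelled as outliers. The round spermatid cross lies among the spermatocyte points, at 5497 CPM of markers and 380 CPM of Hspa1l.

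The genes whose levels followed the germ cell forms most closely were sought among 15063 protein-coding genes, by Pearson's r of log2 CPM over the 21 libraries. These points span 2 separate fractions, and neighbouring values share library and depth, so r is a description only. For Hspa1l the 3 closest were Spata32 (r = 0.998), Mical3 (r = 0.997) and Slfnl1 (r = 0.997). Their r stayed at 0.98 to 0.99 within spermatocytes and within round spermatids. For Hspa2 they were Ewsr1 (r = 0.96), Tspan13 (r = 0.95) and Stx18 (r = 0.94), with r of 0.89 to 0.96 within a fraction. For Hspa4l they were Cdkl3 (r = 0.95), Kif27 (r = 0.92) and Fxr1 (r = 0.92), of which Fxr1 had r = 0.59 within spermatocytes and 0.95 within round spermatids. Between members, the highest r was that of Hspa8 with Hsp90ab1 in spermatocytes (r = 0.89, 10 libraries) and that of Hspa4 with Hsp90aa1 in round spermatids (r = 0.86, 11 libraries). Hspa4l and Hsp90ab1 ran in opposite directions in both (r = -0.80 and -0.70).

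No comparison between genotypes gave a call for any of the 10 genes in either fraction. In null against wild-type spermatocytes, edgeR called 0 of 10 members and 0.0411% of 19450 genes (8 genes, and 4526 without wild-type spermatocyte replicate 5, when still no member was called), and DESeq2 called 0 of 10 members and 15.6% of all genes. At an unadjusted p under 0.05 edgeR gave 1 of 10 members, Hspa5, against 30.4% of all genes. The groups did not overlap for 2 of 10 members, Hspa5 and Hspa4l, against 28.0% of all genes. Null spermatocytes held 383, 486 and 521 CPM of Hspa5, all below the lowest wild-type library at 538 CPM. The log2 fold change was -0.39 ± 0.15, with an edgeR adjusted p of 0.11 and a DESeq2 adjusted p of 0.13. Hspa4l was at 910.4, 945 and 918 CPM in null spermatocytes, above the wild-type range of 712 to 876 CPM. Its log2 fold change was 0.25 ± 0.12 (edgeR adjusted p = 0.18, DESeq2 adjusted p = 0.11). The other 8 members had log2 fold changes from -0.29 to 0.19. Cell type markers moved in the same comparison, although edgeR called none of them: the median log2 fold change was -0.49 over 12 spermatocyte markers (5 lower by DESeq2), 0.57 over 13 round spermatid markers (2 higher), 0.75 over 8 spermatogonia markers (3 higher), 0.68 over the 6 macrophage markers tested (1 higher), -0.27 over 6 Leydig markers (0 called) and -0.71 over 8 Sertoli markers (0 called), against -0.03 over all genes. Their part in the values of the members was not tested. In heterozygous spermatocytes 0 of 10 were called by edgeR (0.0257% of all genes) and 0 by DESeq2 (6.31% of all genes), with 0 at an unadjusted p under 0.05, against 24.6% of all genes. Without wild-type spermatocyte replicate 5 the edgeR count over all genes was 2966 in place of 5, again with 0 members. There 2 of 10 did not overlap with the wild type, Hspa5 and Hspa9, both lower, against 17.6% of all genes. Hspa5 was at 439 to 534 CPM with a log2 fold change of -0.30 ± 0.15 (edgeR adjusted p = 0.23). The median was -0.62 over the spermatocyte markers (4 lower by DESeq2), 0.67 over the round spermatid markers (4 higher), 1.31 over the Leydig markers (2 higher), 0.48 over the macrophage markers and 0.15 over the Sertoli markers (0 called in both) and 0.88 over the spermatogonia markers (4 higher by DESeq2 and 1 by edgeR), against 0.07 over all genes, and their part was likewise not tested.

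In null against wild-type round spermatids, edgeR again called 0 of 10 members (0.0518% of 19310 genes), and DESeq2 called 0 (3.64% of all genes). The groups did not overlap for 2 of 10, Hspa4l and Hspa2, against 19.4% of all genes. Hspa4l was the only member with an unadjusted p under 0.05 here, 1 of 10 against 19.3% of all genes. It held 1122, 1078, 1065 and 1083 CPM in null round spermatids against 776, 855 and 907 CPM in the wild type. All null libraries were higher, with a log2 fold change of 0.33 ± 0.13, or 1.26-fold, and an edgeR adjusted p of 0.18 and a DESeq2 adjusted p of 0.094. Heterozygous round spermatids held 1231, 857, 962 and 1209 CPM of Hspa4l, which overlapped with the wild type, and the log2 fold change was the same size (0.33 ± 0.13, edgeR adjusted p = 0.55). Hspa2 held 1267, 1255, 1301 and 1269.6 CPM in null round spermatids, all below the wild-type libraries at 1408 to 1503 CPM, with a log2 fold change of -0.23 ± 0.12 (edgeR adjusted p = 0.29). Hspa1l was at 1586 ± 261 CPM in null (SD, n = 4) and 1350.2 ± 165 CPM in wild-type round spermatids (SD, n = 3), which overlapped. In heterozygous round spermatids 0 of 10 members were called by edgeR (0.0207% of all genes) and 0 by DESeq2 (0.0363%), 1 had an unadjusted p under 0.05 (Hspa4l, against 8.88% of all genes), and 0 stood apart from the wild type, against 9.81% of all genes. In null round spermatids the medians were -0.20 over the spermatocyte markers (1 lower by DESeq2), 0.24 over the round spermatid markers, 0.19 over the Sertoli markers and 1.03 over 10 macrophage markers (1 higher by DESeq2), against 0.03 over all genes. In heterozygous round spermatids they were -0.03, 0.08 and -0.06 over the spermatocyte, round spermatid and Sertoli markers (0 called by either tool), against 0.01 over all genes. Macrophage markers summed to 38.8 to 92.5 CPM there and to 39.9 to 58.0 CPM in the wild type, and erythrocyte markers to 4.15 to 10.7 CPM and 4.01 to 8.66 CPM. The part of the markers was not tested.

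**Figure D5:**
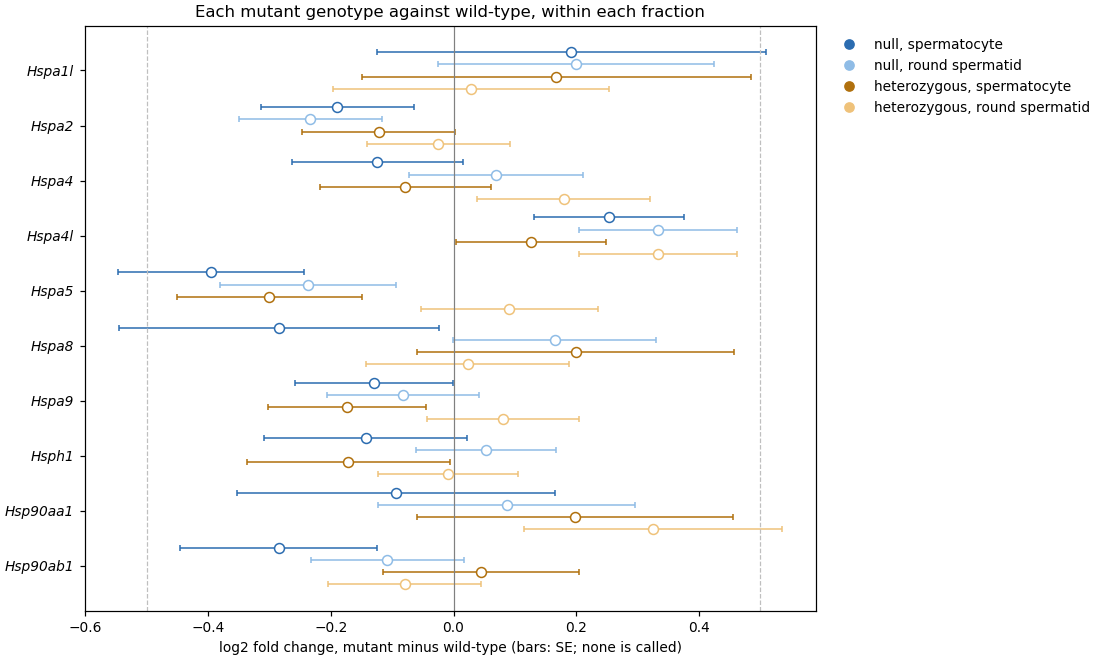
Log2 fold change of null and heterozygous over wild-type libraries for each gene (edgeR, bars show the standard error), within spermatocytes and within round spermatids, with open points because none is called. All 40 values lie between -0.39 and 0.33, and within a fraction both comparisons share the wild-type libraries.

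No member was called between null and heterozygous mice. edgeR and DESeq2 both called 0 of 10 in spermatocytes, where they called 0.00514% and 0.0206% of all genes, and 0 of 10 in round spermatids, where they called 0.00518% and 0.104%. The libraries of the groups did not overlap for 2 of 10 members in spermatocytes, Hspa4l higher and Hsp90ab1 lower in null mice, against 8.62% of all genes, and for 1 in round spermatids, Hspa2 lower in null mice, against 3.93%. In spermatocytes the median log2 fold change was -0.85 over the Sertoli markers, -0.06 over the spermatocyte markers and -0.03 over the round spermatid markers, against -0.06 over all genes. Neither tool called any of these markers. Leydig markers summed to 5.42 to 7.68 CPM in null and to 7.09 to 26.7 CPM in heterozygous spermatocytes. The part of the markers was not tested. At an unadjusted p under 0.05 there were 0 members in spermatocytes, against 3.74% of all genes, and 1 in round spermatids, against 7.67%. That gene was Hspa5, with a log2 fold change of -0.33 ± 0.13 (edgeR adjusted p = 0.63). The null effect in round spermatids was set against the null effect in spermatocytes in a single fit of both fractions. edgeR and DESeq2 called 0 of 10 members, and 0 had an unadjusted p under 0.05, while edgeR called 0.0% of 20404 genes and 5.95% had an unadjusted p under 0.05. The difference of effects ran from 0.00 to 0.50 over the 10 members, with a median of 0.21 against 0.05 over all genes. In the same contrast the median was 0.51 over the spermatocyte markers, 0.96 over the Sertoli markers, -0.48 over the spermatogonia markers and -0.25 over the round spermatid markers, with 0 called by either tool, and their part was not tested. It was largest for Hspa8 (0.50 ± 0.32, edgeR adjusted p = 0.81), whose mean was lower in null than in wild-type spermatocytes (57.4 and 71.1 CPM) and higher in null than in wild-type round spermatids (81.2 and 71.1 CPM). The drops of Hspa4 and Hspa5 between fractions, called in wild-type mice and not in null mice, differed by 0.24 ± 0.19 and 0.20 ± 0.20 (edgeR adjusted p = 0.82 and 0.85), and the heterozygous difference was not tested. Within a fraction, the null and heterozygous comparisons with the wild type share the wild-type libraries.

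The rest of the HSP70 and HSP90 families was less abundant, apart from the proteins of the endoplasmic reticulum. Of 9 other family genes, 2 were called higher and 2 lower in wild-type round spermatids than in spermatocytes (12.7% and 11.4% of all genes were), with a median log2 fold change of -0.20 against 0.02 over all genes. Hsp90b1, the HSP90 of the endoplasmic reticulum (GRP94), fell from 560.4 ± 81.6 CPM (SD, n = 4) to 258 ± 50.5 CPM (SD, n = 3), a log2 fold change of -1.12 ± 0.20 (edgeR adjusted p = 0.00060). Hspa14 fell from 12.1 to 6.26 CPM, and Hspa12b rose from 1.47 to 4.50 CPM. Hspa1a, a heat-inducible HSP70, was called higher at a level of 0.996 ± 0.261 CPM against 0.464 ± 0.149 CPM, and its neighbour Hspa1b was at 0.441 and 0.324 CPM. Hspa1l shares 14.6% of its 31-base words with Hspa1a, which was at most 2.37 CPM in any library used. No other family gene was called by edgeR with genotype in either fraction. DESeq2 called Hspa14 lower in null spermatocytes (log2 fold change -0.86, adjusted p = 0.047), a gene named after its values were seen.

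Cochaperones moved in both directions between the wild-type fractions. The counts of each list stand against 12.7% of all genes called higher and 11.4% called lower. Of 27 HSP40 genes, 6 were higher and 3 lower in round spermatids, with a median of 0.17 against 0.02 over all genes. Dnajb8 rose from 175 to 600.0 CPM (log2 fold change 1.78 ± 0.36), Dnaja4 from 195 to 451 CPM (1.21 ± 0.18) and Dnajc5b from 130.0 to 274 CPM (1.07 ± 0.24), while Dnajc3, which serves BiP in the endoplasmic reticulum, fell from 61.6 to 28.0 CPM (-1.14 ± 0.21). Of 12 nucleotide exchange and regulator genes, 2 were higher and 0 lower: Bag1 rose from 316 to 657 CPM (1.06 ± 0.26) and Bag6 from 1082 to 1546 CPM (0.52 ± 0.15). Of 20 HSP90 cochaperones, 2 were higher and 4 lower, with a median of -0.22. Ppp5c fell from 54.6 to 24.9 CPM, Chordc1 from 10.1 to 4.28 CPM and Ahsa2, a relative of the HSP90 activator Aha1, from 10.9 to 5.88 CPM, while Fkbp5 rose from 10.1 to 18.05 CPM.

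Of 18 genes of the endoplasmic reticulum stress response, 1 was higher and 5 lower in wild-type round spermatids, again beside 12.7% and 11.4% of all genes, with a median of -0.29. Herpud1 rose from 87.4 to 266 CPM (log2 fold change 1.61 ± 0.33), and Sdf2l1 (-1.09 ± 0.25), Syvn1 (-1.05 ± 0.34) and Sel1l (-0.73 ± 0.26) fell. Of 8 mitochondrial chaperones and proteases, 1 was higher and 2 lower: Clpb rose from 411 to 1325 CPM (1.69 ± 0.28), and Timm44 and Hscb fell (-0.71 ± 0.15 and -0.65 ± 0.20). Of the 9 TRiC chaperonin genes 0 were higher and 2 lower, Cct6a (-0.68 ± 0.13) and Cct8 (-0.66 ± 0.14). Of 11 small heat shock protein genes 7 were tested and 1 was higher, Odf1, a sperm tail protein, at 2224 against 750 CPM (1.57 ± 0.29). Of 7 heat shock factor genes 5 were tested and 0 were called by edgeR or DESeq2 between the wild-type fractions. The most abundant, Hsbp1 and Hsf5, stood at 647 and 366 CPM in spermatocytes and at 528 and 308 CPM in round spermatids. Of 14 immediate early genes of cell dissociation 10 were tested here, and 2 were higher (Btg2 and Nr4a1) and 1 lower (Jun), at levels of at most 54.1 CPM.

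None of these lists held a gene called by edgeR between null and wild-type mice in either fraction. Their medians in null spermatocytes ran from -0.29 (endoplasmic reticulum stress genes) to 0.04 (dissociation genes), against -0.03 over all genes, and in null round spermatids from -0.18 to 0.10, against 0.03 over all genes. By DESeq2, which called 15.6% of all genes in null against wild-type spermatocytes, the lists held 15 called genes there. The HSP90 cochaperones had 3 of 20 lower (Chordc1, Ppp5c and Nudc), the HSP40 genes 1 of 27 higher (Dnaja4) and 1 lower (Dnajb11), and the dissociation genes 2 of 9 higher (Btg2 and Nr4a1). In 4 other lists 1 gene was lower: Hspa14 of 9 other family genes, Stub1 of 12 exchange and regulator genes, Timm44 of 8 mitochondrial genes and Hspb11 of 7 small heat shock protein genes tested. The 9 TRiC genes had 0 called. All of these genes were named after their values were seen. The endoplasmic reticulum stress list had 2 of 18 lower there, Atf4 and Sdf2l1 (log2 fold changes -0.76 and -1.09, adjusted p = 0.011 and 0.0070), and 1 lower in null round spermatids, where DESeq2 called 3.64% of all genes, Sdf2l1 (-0.64, adjusted p = 0.036), all named after their values were seen. In heterozygous spermatocytes DESeq2 called 6.31% of all genes, and from these lists it called Nr4a1 (0.75) and Hspe1 (0.94) higher and Timm44 (-0.70) lower. Among the 5 heat shock factors tested DESeq2 called Hsfy2 higher in null mice in both fractions (log2 fold changes 0.88 and 0.70, adjusted p = 0.012 and 0.0028) and in heterozygous spermatocytes (0.79, adjusted p = 0.039), and Hsf2 higher in null spermatocytes (0.77, adjusted p = 0.031). These genes were likewise named after their values were seen. By edgeR the adjusted p of Hsfy2 was 0.060 and 0.077.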

How the data were processed

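The deposited table holds unnormalized counts per gene, made by the authors with Trim Galore and STAR (versions not given in the sources used here) on mm10, from directional poly(A) libraries and uniquely aligned reads. The strand setting and annotation release are not given in the sources used here. Symbols, positions and exon lengths came from GENCODE M21, which matched 55536 of 55536 identifiers. Groups followed the labels, and 3 libraries labelled as outliers were left out, leaving 21.

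Genes reaching 10 counts in 3 or more libraries were fitted with edgeR 4.0.16 (TMM scaling, quasi-likelihood test, R 4.3.3), each fraction alone with its 3 genotypes sharing the spread, and both fractions together for differences between fractions. A call needed a Benjamini-Hochberg adjusted p under 0.05 over all genes tested and an absolute log2 fold change above 0.5. SE is the absolute log2 fold change divided by the square root of F. DESeq2 1.42.0, other size factors, no filter, only the compared groups, blocks, added outlier libraries and leaving out each library were alternatives. An alternative that adds the counts of near-identical copies to a gene was chosen after seeing the data. Correlations with the marker sum used 100000 permutations.

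All 10 members are named. From the other lists, up to 4 called genes with the largest change in a comparison are named, or the most abundant where none was called. The members and lists were chosen with earlier results of these data known. Replicates are pools of mice, so p-values measure the spread between these pooled preparations. The floor of 3 counts was at most 0.234 CPM in any library.

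Library and replicate numbers were checked for pairing by correlating deviations from group means. Samples sharing a replicate number exceeded 0.1 in 4 of 17 pairs across genotypes and in 4 of 9 across fractions, and libraries with consecutive library numbers in 8 of 9 pairs across fractions. Since neither met 0.1 in every pair and the labels do not say what the numbers mark, the fits reported have no block. The tests between fractions thus treat the libraries as independent. All pairs with consecutive library numbers were of the same genotype, and both fractions of such a pair may come from a common preparation, which is not stated.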

Additional observations from a re-analysis of the deposited data

Results flagged for a closer look

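Of 30 groups of 4 libraries examined (10 genes in 3 groups), 1 value stood apart from the others of its group. Hspa1l was at 195 CPM in wild-type spermatocyte replicate 4, where the other 3 libraries held 413 to 452 CPM, so the gap took 0.847 of the group's range, above Dixon's critical value. That library also had the lowest round spermatid marker sum of its group, 3592 CPM against a median of 7472 CPM, and the part of the markers in this value was not tested. Chance marks about 1 in 20 such groups.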

How the results depend on the processing

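Of 1610 values of the 10 genes under the alternatives, 1501 kept their sign and side of the threshold, 18 lost their call and 91 changed sign. All 91 were called in neither fit, and 80 of them moved by no more than 1 SE. The largest shift among those that changed sign was 0.52. A called value moved further: Hspa1l between the wild-type fractions went from 1.87 to 1.22 with the outlier libraries added back. In 113 alternatives of the genotype comparisons, 0 had a member called. The count of members called between fractions in wild-type mice (4) was 0 with the outlier libraries added back and 3 to 4 when 1 library was left out. In heterozygous mice (2) it was 0 with the outlier libraries, 1 with only the compared groups and 1 to 2 when 1 library was left out, and in null mice (2) it was 1 to 2 when 1 library was left out. The cause was not tested.

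The 11 sign changes of more than 1 SE were these. With the outlier libraries added back, Hspa1l in null against wild-type spermatocytes was -0.13, Hsp90aa1 in null against wild-type round spermatids -0.21, Hspa9 and Hsp90aa1 in heterozygous against wild-type round spermatids -0.065 and -0.0014, and the Hsp90aa1 difference of null effects -0.20. When 1 library was left out, Hspa1l ran from -0.17 (without null spermatocyte replicate 1) to 0.44 in null against wild-type spermatocytes and from -0.34 (without the same library) to 0.27 in null against heterozygous spermatocytes. Hsp90aa1 ran from -0.32 (without heterozygous spermatocyte replicate 3) to 0.46 in heterozygous against wild-type spermatocytes and from -0.55 to 0.21 (without the same library) in null against heterozygous spermatocytes. Hspa1l in heterozygous against wild-type round spermatids ran from -0.21 (without heterozygous round spermatid replicate 1) to 0.18, and Hspa8 between heterozygous fractions from -0.38 to 0.11 (without heterozygous spermatocyte replicate 2).

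With the replicate number as a block, the count in heterozygous mice between fractions was 1, and the Hsp90aa1 log2 fold change was -0.77 (adjusted p = 0.051). Deviations of samples with the same replicate number correlated above 0.1 in 4 of 9 pairs across fractions, and some of these pairs also have consecutive library numbers. Libraries of the 2 fractions with consecutive library numbers deviated together more often, above 0.1 in 8 of 9 pairs (-0.14 to 0.31). With such pairs as a block, Hspa5 in wild-type mice was -0.47 and not called, so the count there was 3, and the counts in heterozygous and null mice were both 2. The meaning of the library number is not given.

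Counts over all genes moved more. Null against wild-type spermatocytes gave 8 genes, from 4 to 4526 (without wild-type spermatocyte replicate 5), and heterozygous against wild-type spermatocytes 5, from 2 to 2966 (without the same library). DESeq2 gave 3026 and 1228. Null against heterozygous spermatocytes gave 1, from 0 to 30. In round spermatids, null against wild-type gave 10, from 5 to 702 (DESeq2), heterozygous against wild-type 4, from 3 to 10, and null against heterozygous 1, from 1 to 20 (DESeq2). Between fractions, wild-type mice gave 4934, from 0 (outlier libraries added back) to 6398, heterozygous mice 1814, from 0 (the same) to 2329, and null mice 3498, from 1248 (without null spermatocyte replicate 3) to 4143.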

Other observations

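The library labelled spermatocyte heterozygous replicate 4, an outlier by its label, held 774 CPM of Hspa1l, above the other spermatocyte libraries (196 to 585 CPM), and 387 CPM of Hspa5, near their lowest value of 384 CPM. Its Hspa4l level of 1074 CPM was also above their highest value of 949 CPM. In round spermatid wild-type replicate 3, also an outlier by its label, Hspa2 (1677 CPM), Hspa4 (406 CPM) and Hspa9 (404 CPM) lay above the highest values of the other round spermatid libraries, at 1580.2, 368 and 351 CPM.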
